A study of Mus musculus with 16 samples.

Results

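The 10 genes described here are the transcription factor Nfe2l2 and a set of genes that it is known to control or that defend cells against lipid peroxidation: Slc7a11, Gclc, Gclm, Gsr, Txnrd1, Srxn1, Gpx4, Nqo1 and Hmox1. Gene positions below are those of the RefSeq records on GRCm38.p6. The genes were chosen by name, as the rows of the expression table that carry these symbols. All 10 were among the 45777 genes listed, and all 10 were among the 16209 genes that had at least 1 read in every tumor and were tested.

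Nfe2l2, also called Nrf2, is held at a low level by Keap1, which marks it for degradation. When oxidants or electrophiles modify Keap1, Nfe2l2 accumulates in the nucleus, pairs with small Maf proteins and binds antioxidant response elements near genes for glutathione synthesis, thioredoxin reduction, quinone reduction and heme breakdown. Ferroptosis is an iron-dependent cell death in which membrane lipids are peroxidized. Cells hold it back by importing cystine, making glutathione from it and letting Gpx4 spend that glutathione on lipid peroxides. Because Keap1 controls the Nfe2l2 protein, the level of Nfe2l2 RNA alone does not measure its activity.

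RNA was measured in allograft tumors of B16F10, a mouse melanoma cell line of C57BL/6J origin, grown under the skin of lean C57BL/6J mice or of obese C57BL/6J-ob/ob mice, which lack leptin. The mice were 6 weeks old at grafting. Tumors were taken before therapy or after etoposide (ETS), a topoisomerase II poison that breaks DNA, given as 5 daily injections of 20 mg per kg into the peritoneum and ending 1 day before collection, and each of the 4 groups held 4 tumors. All tumors came from 1 cell line and obesity came from 1 genetic lesion. The labels name the pre-therapy tumors ctrl, and the study describes them as taken before chemotherapy. Whether these mice received a vehicle, or were matched to the ETS mice in time of collection, is not given in the sources used here. A change after ETS therefore cannot be told apart from one of longer tumor growth.

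In units of 1e+06, the counts summed to between 47.2 and 61.7 per tumor, and the smallest count of any of the 10 genes in any tumor was 110. All 12 melanocyte markers were present in every group. Before therapy they summed to between 18940 and 23205 TPM (a scale that corrects for gene length and library size) in lean tumors and to between 9439 and 13890 TPM in obese tumors, without overlap, and after ETS to between 17292 and 20474 TPM and between 9783 and 19159 TPM. Markers of other cells moved with the groups as well. The 12 macrophage markers summed to between 783 and 2074 TPM in lean pre-therapy tumors and to between 71.8 and 497 TPM after ETS, whereas in obese tumors they summed to between 63.5 and 399 TPM before and to between 478 and 1590 TPM after. The 8 erythroid markers summed to between 395 and 1843 TPM in lean and to between 2902 and 40770 TPM in obese pre-therapy tumors, and after ETS to at most 0.459 TPM in lean and 134 TPM in obese tumors. The share of counts from mitochondrially encoded genes was 4.19 to 6.09% in lean tumors before and 9.85 to 14.5% after ETS, against 4.11 to 5.58% and 4.74 to 11.7% in obese tumors. The 8 fibroblast markers summed to 222 to 809 TPM before and 33.6 to 176 TPM after ETS in lean tumors, and to 35.4 to 232 and 239 to 2138 TPM in obese tumors. These are bulk samples, in which fewer cells of a type and less RNA per cell cannot be told apart, and the part of the other cells in the results below was not tested. Nothing in the labels says that the 4 tumors of a group came from separate mice, so the p-values measure the spread between these samples.

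Short stretches of promoter are shown for 4 of the genes because these stretches hold motifs of factors that are known to drive genes of the set. RefSeq windows of 250 bases before a transcript start (GRCm38.p6) were found for 7 of the 10 genes, in 12 windows. Capitals mark a match to the core of the antioxidant response element (ARE, TGACNNNGC), to the core of the C/EBP-ATF response element (CARE, TGATGNAA) through which Atf4 acts, or to an AP-1 site (TGACTCA), each searched on both strands. The letters of an AP-1 site can form part of an ARE core. Only TGACNNNGC was searched as the ARE core. TGAGTCAGC in the Srxn1 stretch, with G in place of C, was therefore not counted as one. Bases annotated as exon near a start were left out of the stretches shown but not of the search.

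Slc7a11 (chr3:50443615-50443863, minus strand, 2 CARE cores in opposite orientation): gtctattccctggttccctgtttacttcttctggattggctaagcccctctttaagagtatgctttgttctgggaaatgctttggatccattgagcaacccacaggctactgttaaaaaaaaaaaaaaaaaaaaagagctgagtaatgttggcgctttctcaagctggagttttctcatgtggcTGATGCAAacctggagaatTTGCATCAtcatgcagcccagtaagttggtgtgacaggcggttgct
Gclm (chr3:122245307-122245486, plus strand, 1 ARE core): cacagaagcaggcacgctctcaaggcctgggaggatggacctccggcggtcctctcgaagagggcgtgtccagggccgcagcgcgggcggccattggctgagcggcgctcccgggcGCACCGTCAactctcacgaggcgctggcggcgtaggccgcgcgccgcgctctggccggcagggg
Txnrd1 (chr10:82859009-82859178, plus strand, 1 ARE core): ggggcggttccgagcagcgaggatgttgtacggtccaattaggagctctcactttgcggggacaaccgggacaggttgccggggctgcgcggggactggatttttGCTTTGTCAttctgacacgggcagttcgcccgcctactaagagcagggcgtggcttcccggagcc
Srxn1 (chr2:152105274-152105515, plus strand, 2 AP-1 sites): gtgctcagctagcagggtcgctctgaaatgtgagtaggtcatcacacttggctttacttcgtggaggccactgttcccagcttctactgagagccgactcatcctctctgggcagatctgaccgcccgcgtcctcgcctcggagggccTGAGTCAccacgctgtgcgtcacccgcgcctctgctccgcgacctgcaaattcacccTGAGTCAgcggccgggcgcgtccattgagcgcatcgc

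An ARE core was found in windows of 3 of the 7 genes, Nfe2l2 (bases 240 to 232 before its start), Gclm (134 to 126) and Txnrd1 (92 to 84). The Nfe2l2 match lies among bases annotated as exon. An ARE core was found in 11.5% of all 27025 genes with windows of the same length (10.2% of 32851 windows), and the 7 genes had 12 windows. The CARE core was found in Slc7a11 alone among the 7 genes, at bases 66 to 59 and, on the other strand, 47 to 40 before its start, and in 3.91% of all genes (3.45% of windows). AP-1 sites stood at bases 102 to 96 and 45 to 39 before the start of Srxn1, and in 5.16% of all genes (4.46% of windows). The RefSeq record of Slc7a11 extends past its window to base 50499087, so the window lies inside that longer record, and the Txnrd1 window lies before an internal start of its gene. A match of letters is a description of the sequence and not a measured site.

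The first question was how each gene responded to ETS in lean and in obese tumors. In lean tumors 5 of the 10 genes fell (Slc7a11, Gsr, Gclc, Txnrd1 and Gclm) and Gpx4 rose, at an adjusted p under 0.05 (edgeR's quasi-likelihood test). Over all 16209 genes 43.8% passed this threshold, 21% of all genes as higher and 22.8% as lower. In obese tumors 4 of the 10 fell (Slc7a11, Txnrd1, Gclc and Gsr) and Srxn1 rose, where 40.2% of all genes passed, 21.2% higher and 19% lower. The 4 genes that fell in obese tumors were all among the 5 that fell in lean tumors, and 10.1% of all genes fell in both. Over all genes, 52.9% of those that fell in obese tumors also fell in lean tumors, and 44.2% of those that fell in lean tumors also fell in obese tumors. For these 10 the median change on the log2 scale was -0.57 (lean) and -0.31 (obese), beside -0.01 and 0.01 over all genes. The groups before and after ETS did not overlap for 5 of the 10 genes in lean tumors and for 4 in obese tumors, beside 41.2% and 34.2% of all genes. On the TPM scale (limma on log2(TPM + 1)), where the median change of all genes in lean tumors was -0.28 against -0.01 on the count scale, the change of Nfe2l2, Nqo1 and Srxn1 in lean tumors also passed as a fall, and higher genes made up 15.7% of all called genes against 48.0%.

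**Figure D1:**
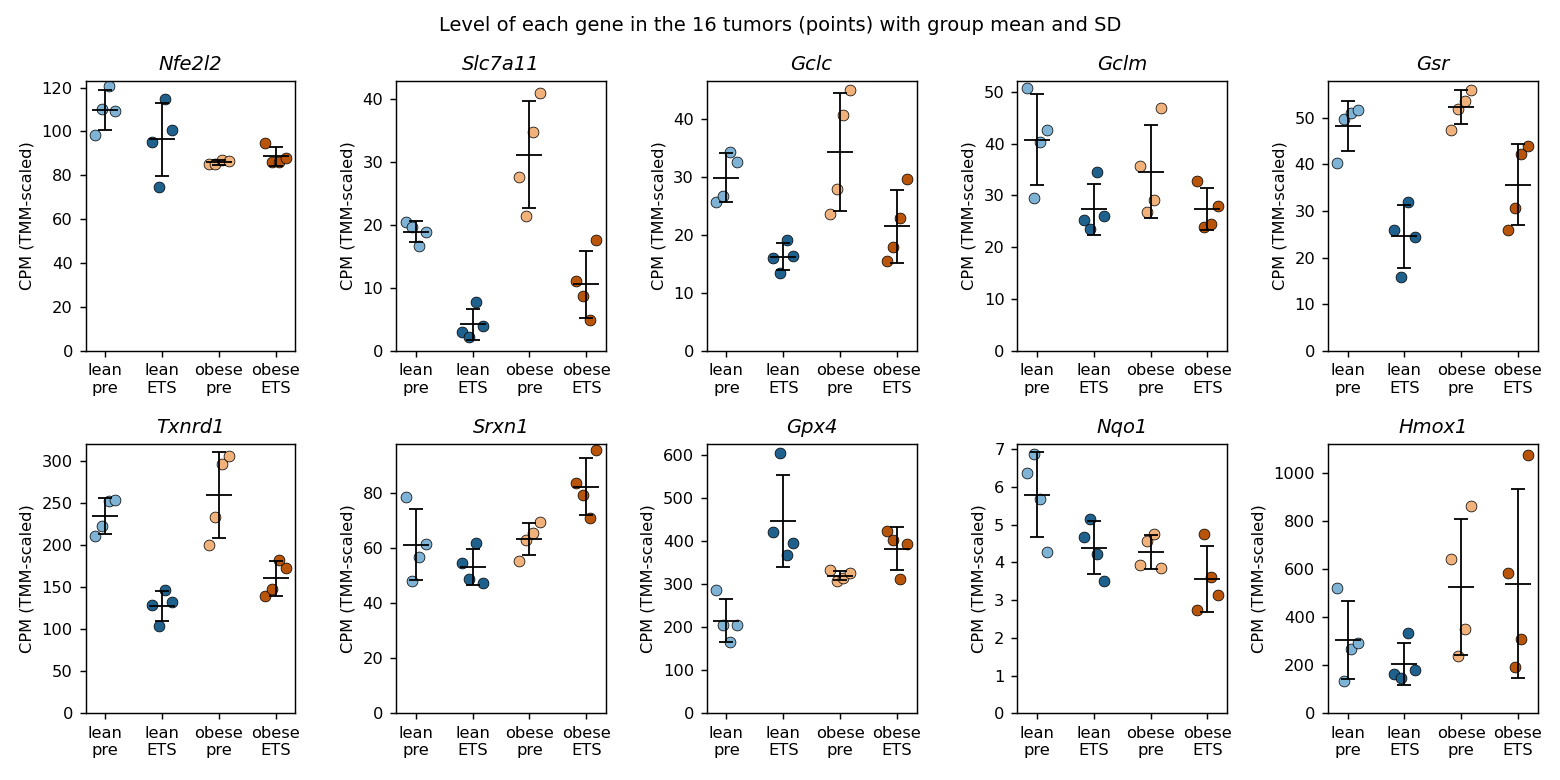
Level of each of the 10 genes in CPM (counts scaled to library size, vertical axes starting at 0) in the 4 tumors of each group (points, ordered by tumor number), with the group mean and SD as bars. Slc7a11, Gsr and Txnrd1 lay lower in every ETS tumor than in every pre-therapy tumor of the same host, and Gpx4 lay higher in every lean ETS tumor than in every lean pre-therapy tumor.

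Slc7a11 (chr3:50364936-50499087, minus strand), the cystine-glutamate antiporter subunit that brings in the cysteine for glutathione, had the largest change of the set in both hosts. In lean tumors 1 to 4 it stood at 20.5, 19.7, 16.6 and 18.9 CPM before therapy and at 2.99, 2.19, 7.76 and 3.91 CPM after ETS. In obese tumors it stood at 27.6, 21.5, 34.7 and 40.9 CPM before and at 11.0, 8.73, 4.85 and 17.6 CPM after. Every ETS tumor lay below every pre-therapy tumor of the same host. The fall was 4.49-fold in lean tumors (log2 fold change -2.17, SE 0.39, adjusted p = 0.000527) and 2.96-fold in obese tumors (-1.56, SE 0.38, adjusted p = 0.00453). The effects differed by -0.60 (SE 0.52, adjusted p = 0.47), which is within the error. Before therapy the obese tumors lay above all the lean ones, by 0.72 on the log2 scale (SE 0.37, adjusted p = 0.166), and after ETS they were 1.32 higher (SE 0.38, adjusted p = 0.0523), with overlap, and neither difference passed. The difference before therapy passed in a fit of only the 2 groups compared (adjusted p = 0.0216). The difference after ETS passed with DESeq2 (adjusted p = 0.00654) and when single tumors were left out: it was 1.80 without lean ETS tumor 3 (adjusted p = 0.036), 1.56 without obese ETS tumor 3 (adjusted p = 0.0282) and 1.40 without obese ETS tumor 2 (adjusted p = 0.049).

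Gclc (chr9:77754535-77794489, plus strand) and Gclm (chr3:122245487-122267215, plus strand) encode the catalytic and the modifier subunit of glutamate-cysteine ligase, the rate-limiting enzyme of glutathione synthesis. In lean tumors Gclc stood at 25.7, 26.7, 34.2 and 32.6 CPM before and at 15.9, 13.4, 19.1 and 16.3 CPM after ETS. Obese tumors held it at 23.6, 27.9, 40.7 and 44.9 CPM before and at 15.4, 17.8, 22.9 and 29.6 CPM after. The lean groups were apart, whereas obese ETS tumor 4 lay above obese pre-therapy tumors 1 and 2. Gclc fell 1.84-fold in lean tumors (log2 fold change -0.88, SE 0.22, adjusted p = 0.00493) and 1.60-fold in obese tumors (-0.68, SE 0.22, adjusted p = 0.0224), and the effects differed by -0.20 (SE 0.31, adjusted p = 0.701). The call in obese tumors was lost without obese pre-therapy tumor 3 or 4 or obese ETS tumor 1 or 2 (adjusted p between 0.0635 and 0.0852, log2 fold change between -0.52 and -0.60) and in a fit of obese tumors alone (adjusted p = 0.0656).

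Gclm stood at 50.6, 29.5, 40.3 and 42.6 CPM in lean tumors before therapy and at 25.3, 23.4, 34.5 and 26.0 CPM after ETS. In the obese host it was at 35.6, 26.7, 29.2 and 46.8 CPM before and at 32.7, 23.9, 24.5 and 28.0 CPM after. The groups overlapped in both hosts. Gclm fell 1.49-fold in lean tumors (log2 fold change -0.58, SE 0.19, adjusted p = 0.0231), and the value in obese tumors was -0.34 (SE 0.19, adjusted p = 0.166). The lean call was lost without lean pre-therapy tumor 1 or 4 or without lean ETS tumor 1, 2 or 4 (adjusted p between 0.0505 and 0.0771). Gclm is also uncertain because 244 of its exon bases are also exon of the pseudogene Gm6061 on the same strand, which had counts of up to 2432 and values of 0.16 (SE 0.08) in lean and -0.26 (SE 0.08) in obese tumors. With the counts of Gm6061 added to Gclm, an alternative chosen after the data were seen, the value in lean tumors was -0.21 (SE 0.12, adjusted p = 0.145).

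Gsr (chr8:33653238-33698162, plus strand), glutathione reductase, returns oxidized glutathione to its reduced form at the cost of NADPH. In lean tumors it stood at 40.4, 49.8, 51.2 and 51.7 CPM before therapy and at 25.9, 15.8, 32.0 and 24.5 CPM after ETS. Obese tumors had it at 47.3, 52.0, 53.7 and 55.9 CPM before and at 26.0, 30.6, 42.3 and 43.9 CPM after. The groups were apart in both hosts. Gsr fell 1.97-fold in lean tumors (log2 fold change -0.98, SE 0.19, adjusted p = 0.00101) and 1.46-fold in obese tumors (-0.55, SE 0.19, adjusted p = 0.0311), and the effects differed by -0.43 (SE 0.27, adjusted p = 0.307). The call in obese tumors was lost without obese pre-therapy tumor 2, 3 or 4 or obese ETS tumor 1 or 2 (adjusted p between 0.0512 and 0.128), and when genes with a 0 were kept (adjusted p = 0.0576).

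Txnrd1 (chr10:82833951-82897724, plus strand), the cytosolic thioredoxin reductase, is a selenoprotein that keeps thioredoxin reduced. It stood at 211, 223, 252 and 254 CPM in lean tumors before therapy and at 128, 104, 146 and 133 CPM after ETS. In obese tumors it stood at 199.96, 233, 297 and 306 CPM before and at 139, 147, 183 and 172 CPM after. No ETS tumor reached the level of any pre-therapy tumor of its host. The fall was 1.84-fold in lean tumors (log2 fold change -0.88, SE 0.14, adjusted p = 0.000253) and 1.61-fold in obese tumors (-0.69, SE 0.14, adjusted p = 0.00166), and the effects differed by -0.19 (SE 0.20, adjusted p = 0.571). After ETS the obese tumors were 0.33 higher than the lean ones (SE 0.14, adjusted p = 0.165), and before therapy 0.14 (SE 0.14, adjusted p = 0.496).

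Srxn1 (chr2:152105524-152111376, plus strand), sulfiredoxin, repairs peroxiredoxins whose cysteine has been over-oxidized. In lean tumors it stood at 78.7, 48.0, 57.0 and 61.5 CPM before therapy and at 54.7, 48.7, 61.7 and 47.3 CPM after ETS. Obese tumors held it at 55.5, 62.9, 65.4 and 69.4 CPM before and at 83.8, 79.4, 70.9 and 95.5 CPM after. The obese ETS tumors lay above all other obese tumors and above all lean ETS tumors. Srxn1 rose 1.30-fold in obese tumors (log2 fold change 0.38, SE 0.14, adjusted p = 0.038) and its value in lean tumors was -0.21 (SE 0.14, adjusted p = 0.235). The effects differed by -0.59 (SE 0.19, adjusted p = 0.0505), just outside the threshold, and this difference passed without lean pre-therapy tumor 2 (adjusted p = 0.0229), lean ETS tumor 3 (0.0374) or obese ETS tumor 3 (0.0371), and with DESeq2 (0.0285). After ETS Srxn1 was 1.55-fold higher in obese than in lean tumors (0.63, SE 0.14, adjusted p = 0.0209), and it was 0.05 higher before therapy (SE 0.14, adjusted p = 0.837). The rise in obese tumors was lost without obese pre-therapy tumor 1, 2 or 3 or obese ETS tumor 1, 2 or 4 (adjusted p between 0.0551 and 0.108) and when genes with a 0 were kept (0.0816), and the difference after ETS without lean ETS tumor 2 or 4 or obese ETS tumor 4 (adjusted p between 0.0546 and 0.0712) and in a fit of ETS tumors alone (0.055).

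Gpx4 (chr10:80047166-80056439, plus strand), the selenoenzyme that reduces lipid hydroperoxides in membranes and is the main barrier to ferroptosis, rose in lean tumors, where 5 of the others fell. It stood at 286, 205, 166 and 205 CPM in lean tumors before therapy and at 422, 604, 367 and 395 CPM after ETS. In the obese host it was at 332, 307, 315 and 326 CPM before and at 423, 402, 312 and 394 CPM after. The lean groups were apart, the obese pre-therapy tumors lay above all the lean pre-therapy tumors, and among the obese tumors obese ETS tumor 3 fell within the pre-therapy range. Gpx4 rose 2.07-fold in lean tumors (log2 fold change 1.05, SE 0.17, adjusted p = 0.000232), and its value in obese tumors was 0.26 (SE 0.17, adjusted p = 0.231).

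The effects of ETS on Gpx4 differed between lean and obese tumors by 0.79 (SE 0.24, adjusted p = 0.0317). Gpx4 was the only one of the 10 genes whose effects differed at this threshold, which 16.4% of all genes passed, 6.35% with the higher effect in lean tumors and 10.1% with the lower. Leaving out lean pre-therapy tumor 2, 3 or 4, lean ETS tumor 2, obese pre-therapy tumor 1, 3 or 4 or obese ETS tumor 3 put this difference outside the threshold (adjusted p between 0.0515 and 0.0639, difference between 0.62 and 0.80). Reads of Gpx4 may also be shared with its pseudogene Gpx4-ps2, whose count was 10.9 to 13.1% of that of Gpx4. Gpx4-ps2 rose in lean tumors as well (1.11, SE 0.17, adjusted p = 0.000179), and with its counts added to Gpx4 the value of Gpx4 in lean tumors was 1.06.

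**Figure D2:**
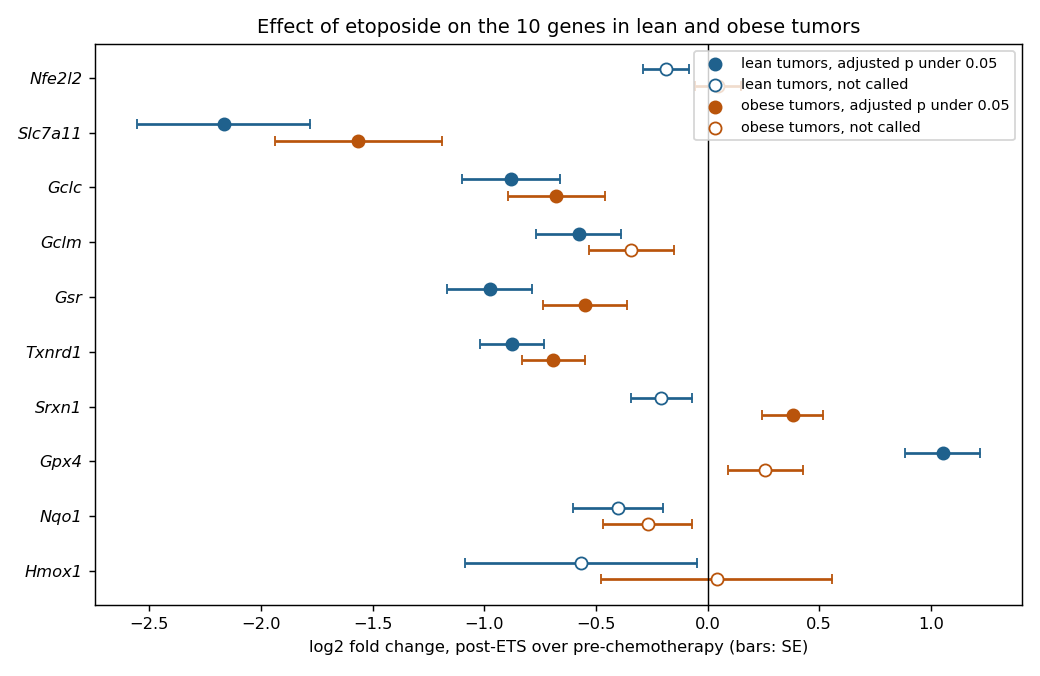
Log2 fold change of each gene from pre-therapy to ETS tumors (horizontal axis), with the SE as bars, in lean and in obese tumors (separate colors), 4 against 4 tumors each. Filled points passed an adjusted p of 0.05 (edgeR): Slc7a11, Gclc, Gsr and Txnrd1 lay left of 0 in both hosts, Gpx4 was filled on the right for lean tumors and Srxn1 for obese tumors.

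Nqo1 (chr8:107388225-107403205, minus strand), a quinone reductase and a common readout of Nfe2l2, was weakly expressed. In lean tumors it stood at 6.37, 6.87, 5.67 and 4.26 CPM before therapy and at 4.67, 5.14, 4.23 and 3.51 CPM after ETS. Obese tumors had it at 3.94, 4.57, 4.76 and 3.84 CPM before and at 2.73, 4.74, 3.61 and 3.13 CPM after. The groups overlapped in both hosts. Its log2 fold change was -0.40 in lean (SE 0.20, adjusted p = 0.116) and -0.27 in obese tumors (SE 0.20, adjusted p = 0.304), and obese tumors differed from lean ones by -0.44 before therapy (SE 0.20, adjusted p = 0.122).

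Hmox1 (chr8:75093618-75100593, plus strand), heme oxygenase 1, breaks heme down into biliverdin, carbon monoxide and iron, and varied most among tumors of 1 group. It stood at 523, 135, 269 and 292 CPM in lean tumors before therapy and at 165, 145, 333 and 179.9 CPM after ETS. In obese tumors it stood at 642, 239, 353 and 862 CPM before and at 584, 191, 307 and 1073 CPM after. The obese tumors spread widely both before and after ETS, and all groups overlapped. The log2 fold change was -0.57 in lean (SE 0.52, adjusted p = 0.393) and 0.04 in obese tumors (SE 0.52, adjusted p = 0.961). Obese tumors differed from lean ones by 0.78 before therapy (SE 0.52, adjusted p = 0.294) and by 1.39 after ETS (SE 0.53, adjusted p = 0.119).

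Macrophages, which break down heme from red cells, are a known source of Hmox1, so its level was set beside the markers of both cell types. Obese pre-therapy tumor 4, at 1031 TPM of Hmox1, held 40770 TPM of erythroid markers and 63.5 TPM of macrophage markers, the lowest macrophage sum of all 16 tumors. Obese ETS tumor 4, at 1349 TPM of Hmox1, held 50.7 TPM of erythroid and 1590 TPM of macrophage markers. The lean ETS tumors held at most 0.459 TPM of erythroid markers and still had 137 to 386 TPM of Hmox1. The highest Hmox1 stood beside a high macrophage sum in 1 tumor and the lowest such sum in another. These same tumors had the highest sums of the 8 neutrophil markers among all 16 tumors. The sums were 67.6 TPM in obese pre-therapy tumor 4 and 83.3 TPM in obese ETS tumor 4. The other obese tumors held 3.29 to 6.86 TPM before and 2.73 to 6.01 TPM after ETS. Obese pre-therapy tumor 1, at 810 TPM of Hmox1, held 3.73 TPM of neutrophil markers. The part of macrophages, red cells and neutrophils in Hmox1 was not tested.

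**Figure D3:**
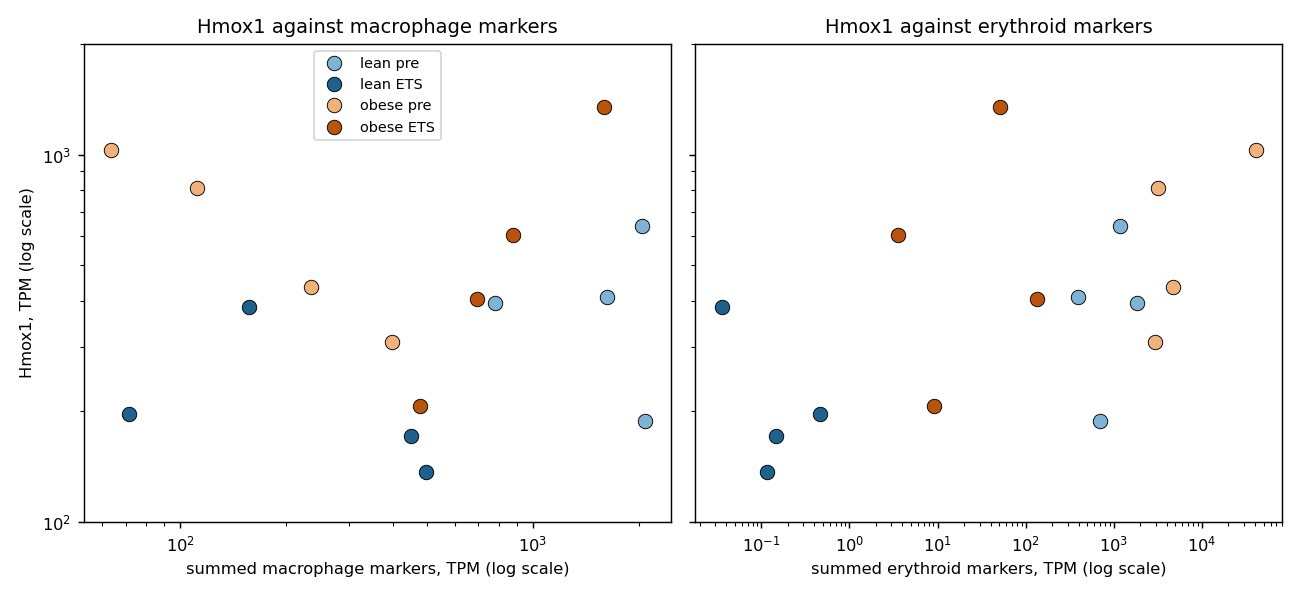
Hmox1 in each of the 16 tumors (vertical axis, TPM, log scale) against the summed TPM of macrophage markers (left) and of erythroid markers (right, both log scales), colored by group. The 2 tumors with the most Hmox1, obese ETS tumor 4 at 1349 TPM and obese pre-therapy tumor 4 at 1031 TPM, lay near opposite ends of the macrophage axis.

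Nfe2l2 (chr2:75675513-75704663, minus strand) itself, the transcription factor of the set, did not pass after ETS in either host. It stood at 98.6, 110.5, 121 and 109 CPM in lean tumors before therapy and at 95.4, 74.7, 115 and 100.5 CPM after ETS. Obese tumors held it at 85.1, 84.9, 87.0 and 86.6 CPM before and at 94.8, 86.2, 85.9 and 87.8 CPM after. All obese pre-therapy tumors lay below all lean pre-therapy tumors. The log2 fold change after ETS was -0.19 in lean (SE 0.10, adjusted p = 0.148) and 0.05 in obese tumors (SE 0.10, adjusted p = 0.762), and the lean value passed without lean ETS tumor 3 (-0.28, adjusted p = 0.0319). Before therapy Nfe2l2 was 1.28-fold lower in obese than in lean tumors (-0.35, SE 0.10, adjusted p = 0.019), a call lost without lean pre-therapy tumor 3 (-0.30, adjusted p = 0.0614). After ETS it was 0.12 lower (SE 0.10, adjusted p = 0.492).

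The second question was how obese tumors differed from lean ones at each stage. Before therapy, Gpx4 was 1.48-fold higher in obese tumors (0.57, SE 0.17, adjusted p = 0.0202) and Nfe2l2 was lower, and 26.4% of all genes passed, 13.5% higher and 12.9% lower in obese tumors. Of the 12 melanocyte markers, 8 were lower in obese tumors at this stage (median -0.78), and their part in these differences was not tested. The Gpx4 call was lost without lean pre-therapy tumor 2, 3 or 4 (adjusted p between 0.0523 and 0.065). The groups did not overlap for 3 of the 10 genes (Slc7a11, Gpx4 and Nfe2l2), beside 30.4% of all genes. After ETS, Srxn1 alone among the 10 passed, higher in obese tumors, where 5.58% of all genes passed, 3.28% higher and 2.3% lower, and it was also the only one of the 10 whose groups did not overlap, beside 13.2% of all genes. Between obese and lean ETS tumors Gsr differed by 0.54 (SE 0.19, adjusted p = 0.0961), Gclc by 0.41 (SE 0.22, adjusted p = 0.261) and Gpx4 by -0.22 (SE 0.17, adjusted p = 0.428). These comparisons share tumors with the comparisons of ETS above. The median difference of the 10 genes, obese minus lean, was 0.13 before and 0.37 after ETS, beside 0.02 and 0.00 over all genes.

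Compared per length, in TPM, Gpx4 and Hmox1 were the most abundant of the set and Slc7a11 and Nqo1 the least. Gpx4 averaged 567 ± 84.5 TPM in lean and 775 ± 27.3 TPM in obese pre-therapy tumors, and 908 ± 134 and 868 ± 70.3 TPM after ETS (SD, n = 4). Hmox1 averaged 408 ± 185 and 647 ± 333 TPM before and 223 ± 111 and 642 ± 499 TPM after, so that Gpx4 and Hmox1 did not differ beyond their spread in obese tumors. Txnrd1 came next (149 ± 23.1 and 148 ± 25.6 TPM before, 63.0 ± 13.7 and 87.9 ± 21.1 TPM after). Nfe2l2 averaged 96.4 ± 14.9 and 68.6 ± 1.60 TPM before and 65.4 ± 16.5 and 66.5 ± 6.28 TPM after. In lean tumors after ETS, Txnrd1 no longer stood apart from Nfe2l2. In each obese ETS tumor Txnrd1 lay above Nfe2l2 (66.7 against 62.6, 73.8 against 59.8, 111 against 72.4 and 100.1 against 71.3 TPM). Srxn1, Gclm and Gsr lay together between 32.8 and 46.6 TPM before therapy and between 15.6 and 54.2 TPM after, and Gclc between 7.93 and 19.4 TPM. Nqo1 averaged 8.02 ± 1.52 and 5.41 ± 0.675 TPM before and 4.67 ± 0.528 and 4.23 ± 1.04 TPM after. Slc7a11 averaged 4.42 ± 0.241 and 6.61 ± 1.60 TPM before and 0.783 ± 0.522 and 2.11 ± 1.17 TPM after, the lowest of the set in every group but the obese pre-therapy tumors.

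Over the 16 tumors the genes did not move as 1 block. Among the 45 pairs, Pearson's r of log2 CPM ran from -0.77 to 0.96 with a median of 0.21, and 34 pairs were positive. Gclc, Gsr, Txnrd1 and Slc7a11 stood closest together (r from 0.85 to 0.96), and Gpx4 and Gsr farthest apart (r = -0.77). Within groups, as deviations from the group means, Gclc and Txnrd1 still had r = 0.92, and Gpx4 and Gsr still had r = -0.78. By contrast, Slc7a11 and Txnrd1 had r = 0.36, and Slc7a11 and Gpx4 went from -0.57 to -0.07. The points share libraries and group differences, so these values are given as a description.

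Among the 13312 genes with a mean of at least 1 CPM, those most like Slc7a11 over the 16 tumors were Slc1a4 (r = 0.96), a transporter of neutral amino acids, Cars (0.94), the cysteinyl-tRNA synthetase, and Mthfd2 (0.93), an enzyme of the mitochondrial folate pathway. The genes most like Gpx4 were Gpx4-ps2 (0.99), Sec22a (0.98) and Atp5d (0.98), a subunit of ATP synthase. Those most like Hmox1 included Slc25a51 (0.90) and Tpd52 (0.87), and those most like Nfe2l2 were Zfp398, 2900097C17Rik and Vcpip1 (0.88 to 0.89). Within groups the values were 0.77 for Slc1a4, 0.66 for Cars, 0.74 for Mthfd2 and 0.96 for Gpx4-ps2.

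The other genes of the pathway, from lists compiled for this purpose, moved in different directions. For every list below, the shares over all genes after ETS were 21% higher and 22.8% lower in lean tumors. In obese tumors these shares were 21.2% and 19%. The counts of some lists lay near these shares, and all are given as a description. Among 16 regulators and partners of Nfe2l2, lean tumors had 5 that rose and 4 that fell, and obese tumors had 3 of each, with medians of -0.07 and 0.11. Keap1, its inhibitor, fell in lean tumors by 0.25 on the log2 scale (SE 0.10, adjusted p = 0.0469), and had 0.14 in obese tumors (SE 0.10, adjusted p = 0.263). Before therapy Keap1 was 0.50 lower in obese than in lean tumors (adjusted p = 0.00131). Bach1, a repressor that competes for the same elements and is known for its control of Hmox1, fell in lean tumors (-1.08, SE 0.13, adjusted p = 2.49e-05). It had 0.09 in obese tumors (SE 0.13, adjusted p = 0.609), and these effects differed (-1.17, adjusted p = 0.000517). For Bach1, obese tumors differed from lean ones by -0.76 before therapy (adjusted p = 0.000587) and by 0.42 after ETS (adjusted p = 0.0668). Mafg, a small Maf partner, fell in both hosts (-0.73 and -0.39, adjusted p = 0.000222 and 0.0149). Sqstm1, which sequesters Keap1, rose in lean tumors (0.49, SE 0.12, adjusted p = 0.00466), as did the related factor Nfe2l1 (0.32, SE 0.11, adjusted p = 0.0248). The largest changes in the list were in Cdkn1a, the p53 target p21 that can also bind Nfe2l2 (3.44, SE 0.23 in lean and 1.27, SE 0.21 in obese tumors), and in Palb2, a homologous recombination factor that binds Keap1 (-1.40, SE 0.24 and -0.83, SE 0.23).

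**Figure D4:**
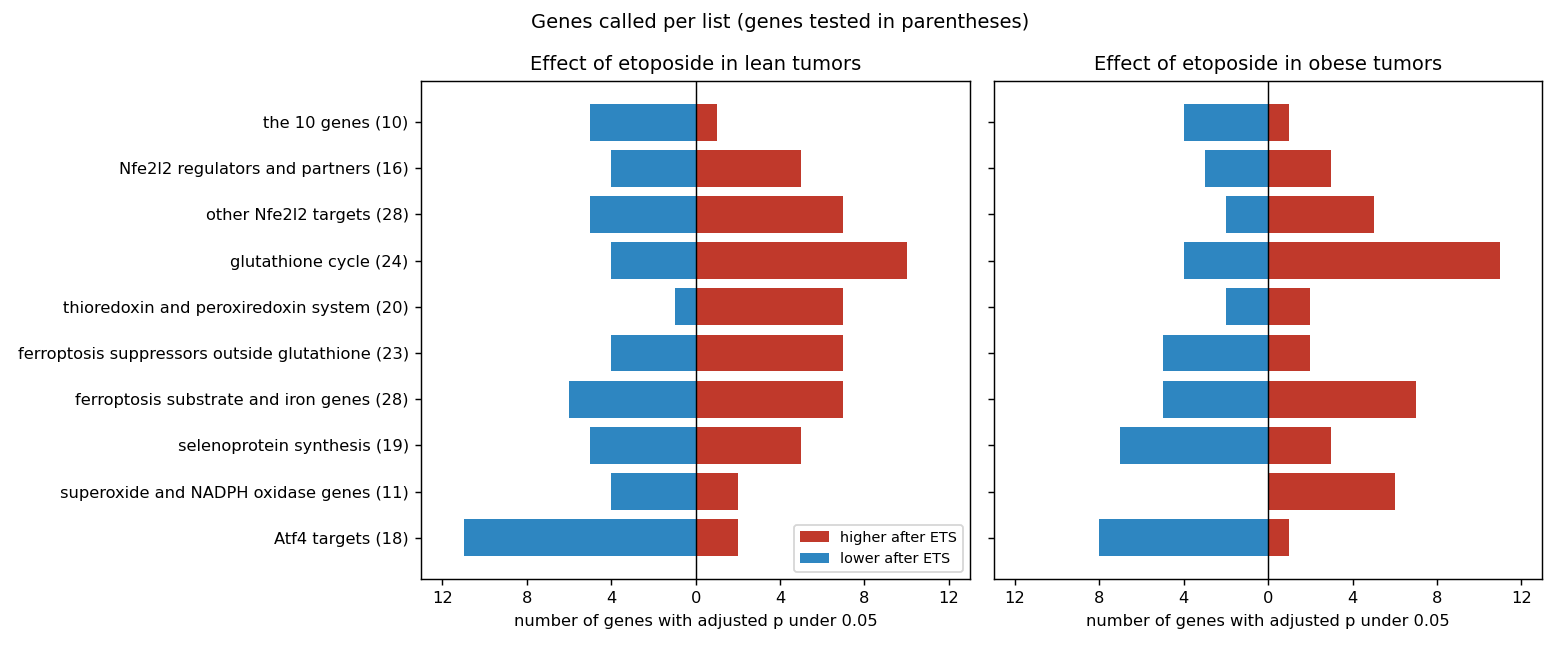
Number of genes per list that passed an adjusted p of 0.05 after ETS, to the right when higher and to the left when lower, in lean (left panel) and obese tumors (right panel), with the number tested in parentheses. In lean tumors 5 of the 10 genes and 11 of 18 Atf4 targets were lower, beside 22.8% of all genes. In the glutathione cycle 10 of 24 genes were higher, beside 21% of all genes.

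Of 28 other known targets of Nfe2l2, 7 rose and 5 fell in the lean host against 5 and 2 in the obese host, with medians of 0.02 and 0.16. Txn1, thioredoxin, fell in both hosts (-0.45 and -0.53, SE 0.08 each, adjusted p = 0.000417 and 0.000139), as Txnrd1 did. G6pdx, which makes NADPH in the pentose phosphate pathway, rose in both (0.45 and 0.40, SE 0.15 each, adjusted p = 0.0257 and 0.0471). Ephx1, an epoxide hydrolase, rose in both by more (2.40 and 1.88, SE 0.24 each). Fth1, ferritin heavy chain, rose in lean tumors (0.63, SE 0.20, adjusted p = 0.0203), whereas Ftl1, its light chain, had -0.15 (SE 0.19, adjusted p = 0.529). Gpx2 rose in lean tumors from 0.34 ± 0.168 to 2.56 ± 1.19 TPM (3.23, SE 0.61, adjusted p = 0.00077). Mgst1, a microsomal glutathione transferase, fell by 0.73 in the lean host (SE 0.19) and rose by 1.22 in the obese (SE 0.20). These effects differed by -1.96 (adjusted p = 0.000229). For Mgst1, obese tumors differed from lean ones by -1.81 before therapy (adjusted p = 1.28e-05) and by 0.14 after ETS (adjusted p = 0.678).

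In the glutathione cycle outside the 10 genes, 10 of 24 were higher and 4 lower after ETS in lean tumors (median 0.10), against 11 and 4 in obese tumors (median 0.38). Gss, which adds glycine in the last step of glutathione synthesis, rose in both hosts (0.80 and 0.48, SE 0.15 each, adjusted p = 0.000621 and 0.0166), opposite to Gclc. Chac1, which degrades glutathione, fell in both (-1.78, SE 0.42 and -1.26, SE 0.41, adjusted p = 0.00346 and 0.0229), as did Cth, which makes cysteine from cystathionine (-1.19, SE 0.29 and -2.28, SE 0.30, adjusted p = 0.00432 and 8.06e-05). Slc3a2, the heavy chain that carries Slc7a11 to the membrane, had 0.12 in lean and 0.13 in obese tumors (SE 0.14 each, adjusted p = 0.483 and 0.469). Gpx1 and Gpx3, the cellular and the plasma glutathione peroxidase, rose in obese tumors (0.55, SE 0.13, adjusted p = 0.00453, and 3.22, SE 0.98, adjusted p = 0.017).

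Of 20 genes of the thioredoxin and peroxiredoxin system, 7 were higher and 1, Txn1, lower after ETS in lean tumors (median 0.25), against 2 and 2 in obese tumors (median 0.07). Sesn2, a sestrin induced by stress, rose in both hosts (1.23, SE 0.17 and 0.62, SE 0.16). Prdx1, the abundant peroxiredoxin that Srxn1 repairs, had 0.02 in lean and -0.32 in obese tumors (SE 0.13 each, adjusted p = 0.92 and 0.0665), and after ETS it was 0.52 lower in obese than in lean tumors (adjusted p = 0.0383), where Srxn1 was higher. Txnip, an inhibitor of thioredoxin, had 0.00 and 0.28 (SE 0.21 each).

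Among ferroptosis suppressors that do not use glutathione, 7 of 23 were higher and 4 lower in lean tumors (median -0.09), against 2 and 5 in obese tumors (median -0.01). Aifm2 (FSP1), which reduces coenzyme Q, rose in obese tumors (0.43, SE 0.12, adjusted p = 0.00828) and had 0.25 in lean tumors (SE 0.12, adjusted p = 0.0884), and after ETS it was 0.52 higher in obese tumors (adjusted p = 0.0224). Sc5d, which makes 7-dehydrocholesterol, fell in both hosts (-0.67 and -0.71, SE 0.14 each). Slc40a1, the iron exporter ferroportin, rose in both by 1.61 (SE 0.53 each).

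Of 28 genes of ferroptosis substrates and iron handling, 7 were higher and 6 lower in lean tumors (median -0.14), against 7 and 5 in obese tumors (median 0.14). Acsl4, which loads polyunsaturated fatty acids into membrane lipids, fell in lean tumors (-0.67, SE 0.12, adjusted p = 0.00053) and had -0.30 in obese tumors (SE 0.12, adjusted p = 0.0592). Tfrc, the transferrin receptor, fell in both (-0.70, SE 0.23 and -1.12, SE 0.24, adjusted p = 0.024 and 0.00196), whereas Trf, transferrin itself, rose in both (0.96 and 0.80, SE 0.16 each). Elovl5, a fatty acid elongase, fell in lean tumors (-0.81, SE 0.12), and Alox5, a lipoxygenase of myeloid cells, rose in obese tumors (3.18, SE 0.92, adjusted p = 0.0133) alongside the macrophage markers above.

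Gpx4 and Txnrd1 carry selenocysteine, so the genes that supply it were counted as well. Of 19 genes for selenoproteins and their synthesis, 5 were higher and 5 lower in lean tumors (median -0.05), against 3 and 7 in obese tumors (median -0.19). Lrp8, a receptor for selenium-carrying Selenop, fell in both (-1.47, SE 0.18 and -1.07, SE 0.17), whereas Selenop rose in both (0.88, SE 0.26 and 1.88, SE 0.27), and Selenom rose in both (1.14 and 0.60, SE 0.14 each).

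Of 11 superoxide and NADPH oxidase genes, lean tumors had 2 higher and 4 lower, obese tumors had 6 higher (medians -0.13 and 1.10), and the median difference between the effects was -1.52. Cybb and Ncf4, subunits of the phagocyte oxidase, fell in lean tumors (-3.48, SE 0.84 and -2.51, SE 0.64), where 9 of 11 macrophage markers fell, and Ncf4 rose in obese tumors (2.61, SE 0.66), where 9 of 11 macrophage markers rose. Sod1, the cytosolic superoxide dismutase, rose in lean tumors (0.49, SE 0.08, adjusted p = 0.000301) and had -0.04 in obese tumors (SE 0.08, adjusted p = 0.72), and the effects differed (0.53, adjusted p = 0.00516).

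Slc7a11 is also a known target of Atf4, the transcription factor of the amino acid and unfolded protein responses, so 18 Atf4 targets including Atf4 itself were counted. In lean tumors 11 fell and 2 rose (median -0.79), and in obese tumors 8 fell and 1 rose (median -0.72). Atf4 RNA fell in both hosts (-1.49, SE 0.38 and -1.30, SE 0.38, adjusted p = 0.0062 and 0.0144). Mthfd2, which followed Slc7a11 over the 16 tumors, fell in both (-0.94 and -1.08, SE 0.20 each). Cebpb, a partner of Atf4, fell in lean tumors (-2.05, SE 0.50, adjusted p = 0.00465). Sesn2, named above and also in this list, went the other way, with its largest rise in both hosts (1.23 and 0.62). In obese against lean tumors 6 of the 18 were higher and 0 lower before therapy, where 13.5% of all genes were higher and 12.9% lower. After ETS 6 were higher and 0 lower, where 3.28% of all genes were higher and 2.3% lower. That last share depended on the fit. The 904 genes called in either direction became 66 with only the ETS tumors fitted and 2078 with DESeq2. The part of Atf4 in the fall of Slc7a11 was not tested.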

How the data were processed

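RNA from 16 tumors was sequenced after preparation with a stranded mRNA kit. The authors aligned reads to mm10 with HISAT2 2.1.0 and quantified genes with StringTie 2.1.3b, per the labels and methods. Trimming with Trimmomatic and bcl2fastq 2.20.0 are also named in the submitters' processing notes. Whether counting used the strand is not given in the sources used here. The authors deposited counts that are whole numbers per gene, unnormalized, and TPM from the same step. The 16 columns of FPKM were not used.

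Of 45777 genes, 29568 with a count of 0 in a tumor were excluded, as in the study, and 16209 were tested with edgeR 4.0.16 (R 4.3.3) by its quasi-likelihood test on counts of all 16 tumors, scaled by TMM, p-values being adjusted by Benjamini-Hochberg across the whole tested set at a threshold of 0.05. CPM are TMM-scaled. Fold changes are fitted, SE is their standard error, and bars in figures are SD where named so. The alternatives included DESeq2 1.42.0 and limma 3.58.1 (on log2(TPM + 1), with 0.1 as another pseudocount).

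The 10 genes and all lists were chosen with earlier results of these data known. Beside the 10 genes, those named were fixed names and, per list, the largest rise and fall in either host among called genes with a mean of at least 1 CPM. Slc1a4, Cars, Mthfd2 and the other similar genes are the 3 highest correlations for each of 4 of the 10 genes. Some genes that these rules name are not reported here. Gm6061 and Gpx4-ps2 were named after their values were seen. Genes were matched by Entrez identifiers to the GRCm38.p6 table of RefSeq (45679 found), and exon overlaps came from GENCODE (GRCm38).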

Additional observations from a re-analysis of the deposited data

Results flagged for a closer look

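Gsr in lean pre-therapy tumor 1 stood at 40.4 CPM, below the other 3 tumors of its group (49.8 to 51.7 CPM), a gap that was 0.845 of the whole range of the group, above Dixon's limit for 4 samples. It was the only one of 40 groups (10 genes in 4 groups) that did so, where chance gives about 1 in 20. In its group, lean pre-therapy tumor 1 also had the lowest Nfe2l2 (98.6 CPM), Gclc (25.7 CPM) and Txnrd1 (211 CPM). It had the highest Gpx4 (286 CPM), Slc7a11, Gclm, Srxn1 and Hmox1, and the highest mitochondrial share of counts (6.09% against 4.19 to 4.95%). Whether these go together was not tested. The effects of ETS on Gpx4 in lean and in obese tumors differed by 0.79 on the log2 scale (lean minus obese, edgeR adjusted p = 0.0317).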

How the results depend on the processing

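No call was reversed under the alternatives run. Some values that were not called changed sign, such as Hmox1 in obese tumors (0.04, and as low as -0.55 with a tumor left out). Of the 15 calls of the 10 genes over the 5 comparisons, 7 held under every alternative and every tumor left out: Slc7a11, Gclc, Gsr, Txnrd1 and Gpx4 in lean tumors and Slc7a11 and Txnrd1 in obese tumors. Of 800 single-gene values with a tumor left out, 758 stayed on their side of the threshold, 35 lost a call and 7 gained one. Of 530 values under other alternatives, 502 stayed, 10 lost a call and 18 gained one. The cause of these changes was not tested.

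With limma on log2(TPM + 1) the median change over all genes came to -0.28 (lean) and -0.05 (obese), -0.16 for the difference between the effects, and -0.08 and 0.10 for obese against lean tumors before and after ETS, against -0.01, 0.01, 0.05, 0.02 and 0.00 on the count scale. The share of called genes that were higher was then 15.7% against 48.0% in lean tumors, 9.24% against 38.7% for the difference, 29.0% against 51.0% before therapy and 83.8% against 58.7% after ETS. On this scale 8 of the 10 genes fell in lean tumors, with Nfe2l2, Nqo1 and Srxn1 added, and relative to that median of -0.28 their values were -0.30, -0.38 and -0.28. The same fit called 0 of the 10 higher in obese tumors, as did the fit without exclusion of genes with a 0 (0) and the fit with filterByExpr (0). It put 1 of the 10, Srxn1, lower in the difference, as did DESeq2 (1), and 2 lower in obese tumors before therapy (Nfe2l2 and Nqo1). With voom and sample weights, and with only the groups compared, 2 of the 10 were higher in obese tumors before therapy (Gpx4 and Slc7a11).

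In obese against lean tumors after ETS, the count of all genes called was 904, and it was 450 without exclusion, 1564 with the exact test on counts with 1 added, 2078 with DESeq2 and 66 with only the groups compared. Of the 10 genes, 2 were then higher with the exact test, 2 with DESeq2 and 0 with only the groups compared. A block for the tumor number gave 1683 genes and 4 of the 10 (Srxn1, Slc7a11, Gsr and Txnrd1). Whether tumors of the same number belong together could not be told from these values. Between groups, correlations of the deviations from the group means ran from -0.11 to 0.45 for same-numbered tumors (24 pairs, median 0.07, 11 over 0.1). For other numbers they ran from -0.58 to 0.51 (72 pairs, median -0.04, 18 over 0.1), and 5 of 16 tumors correlated best with their own number. The block is therefore given only here.

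With each tumor left out in turn, the count of all genes called ran from 5814 to 7502 in lean tumors, from 4904 to 6639 in obese tumors, from 1983 to 3096 for the difference, from 3102 to 4688 before therapy and from 185 (without lean ETS tumor 4) to 1340 after ETS. The low counts after ETS were 231 without obese ETS tumor 4, 236 without lean ETS tumor 3, 447 without lean ETS tumor 2 and 513 without lean ETS tumor 1. Of the 10 genes, 1 rose in lean tumors each time (from 1 to 1) and from 4 to 6 fell. In obese tumors from 0 to 1 rose and from 2 to 4 fell. For the difference from 0 to 1 were higher and from 0 to 1 lower, before therapy from 0 to 1 and from 0 to 1, and after ETS from 0 to 2 and from 0 to 0.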
